A study of Mus musculus with 18 samples.

Results

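The NRF2 antioxidant targets described here are 10 genes, chosen by symbol from the deposited gene table, and all 10 were among its 23511 genes. They are Slc7a11, Gclc, Gclm and Gsr, which supply and regenerate glutathione, Txnrd1, Srxn1 and Prdx1, which belong to the thioredoxin and peroxiredoxin system, Hmox1 and Nqo1, which act on haem and quinones, and Sqstm1, a selective autophagy receptor. The study sequenced RNA of macrophages sorted from the mouse peritoneal cavity as Tim-4low or Tim-4high, Tim-4 being a phosphatidylserine receptor of resident cavity macrophages. Tumor-bearing mice carried MC38-LG cells in the peritoneum. MC38 is a mouse colon adenocarcinoma line, and the labels do not spell out LG. One pair of groups came from tumor-bearing mice given an antibody against Tim-4 on day 7 and collected on day 10 after tumor challenge. A second pair came from mice with the same tumor that received an isotype antibody as control, and the labels do not state its day of dosing. The third pair came from mice with neither tumor nor treatment, collected on the same day. Each pair holds Tim-4low and Tim-4high cells, so there were 6 groups of 3 libraries, 18 in all. The mice without tumor also had no antibody, so the tumor and the isotype antibody cannot be told apart in comparisons with them. The sources used here give no strain, genotype, sex or age of the mice. The labels call the libraries triplicates and do not say whether each is another animal, so a p-value here is set by the scatter of these samples alone, and that scatter may be technical.

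NRF2, encoded by Nfe2l2, is a transcription factor that KEAP1 holds in the cytoplasm and sends to degradation. Oxidants and electrophiles modify cysteines of KEAP1, and NRF2 then accumulates, enters the nucleus and binds antioxidant response elements together with small MAF proteins, where BACH1 competes with it as a repressor. In macrophages the pathway is known for limiting oxidative damage, for handling the haem of engulfed red cells and for dampening inflammatory gene expression.

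RefSeq promoter windows of 300 bases, from 250 bases before to 50 after an annotated start on GRCm38.p6, were at hand for 7 of the 10 genes, and Hmox1, Gclc and Gsr had no entry. The windows were searched on both strands for the core antioxidant response element as TGACNNNGC and as TGAGNNNGC, for the AP-1 element as TGANTCA and for the amino acid response element bound by ATF4 as TGATGNAAA. TGACNNNGC stood in 12.4% and TGAGNNNGC in 17.6% of all 32851 RefSeq windows, TGANTCA in 7.81% and TGATGNAAA in 1.16%. The windows below are those of the target genes that hold 1 of the response elements. Capitals mark TGACNNNGC or TGAGNNNGC on either strand in the first 4, and TGATGNAAA on either strand in the window of Slc7a11. The Gclm window lies at chr3:122245307-122245606 (+), that of Txnrd1, the second of its 3, at chr10:82858956-82859255 (+), that of Srxn1 at chr2:152105274-152105573 (+), that of Prdx1 at chr4:116685349-116685648 (+) and that of Slc7a11 at chr3:50443564-50443863 (-).
Gclm: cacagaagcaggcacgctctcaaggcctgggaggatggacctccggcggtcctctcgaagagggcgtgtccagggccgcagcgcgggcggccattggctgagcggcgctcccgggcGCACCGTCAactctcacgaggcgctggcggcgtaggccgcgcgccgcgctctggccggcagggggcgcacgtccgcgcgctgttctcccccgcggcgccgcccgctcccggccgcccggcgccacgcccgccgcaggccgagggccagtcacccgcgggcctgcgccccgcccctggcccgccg
Txnrd1: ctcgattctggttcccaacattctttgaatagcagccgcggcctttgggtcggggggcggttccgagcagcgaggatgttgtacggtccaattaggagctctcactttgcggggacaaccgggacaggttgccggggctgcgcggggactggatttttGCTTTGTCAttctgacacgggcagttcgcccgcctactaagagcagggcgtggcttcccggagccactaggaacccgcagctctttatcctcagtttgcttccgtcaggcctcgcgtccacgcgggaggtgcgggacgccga
Srxn1: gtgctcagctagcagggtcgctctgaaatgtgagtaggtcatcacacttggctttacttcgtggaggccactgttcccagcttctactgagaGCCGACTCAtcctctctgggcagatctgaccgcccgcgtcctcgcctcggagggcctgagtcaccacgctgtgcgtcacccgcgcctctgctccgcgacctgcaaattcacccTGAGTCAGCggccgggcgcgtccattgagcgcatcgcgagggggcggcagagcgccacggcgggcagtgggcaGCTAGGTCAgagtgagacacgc
Prdx1: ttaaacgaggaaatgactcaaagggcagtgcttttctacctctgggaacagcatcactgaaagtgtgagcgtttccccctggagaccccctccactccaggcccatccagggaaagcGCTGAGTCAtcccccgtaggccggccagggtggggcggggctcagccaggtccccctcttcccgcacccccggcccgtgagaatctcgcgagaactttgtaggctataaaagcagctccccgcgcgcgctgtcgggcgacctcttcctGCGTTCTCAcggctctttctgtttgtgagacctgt
Slc7a11: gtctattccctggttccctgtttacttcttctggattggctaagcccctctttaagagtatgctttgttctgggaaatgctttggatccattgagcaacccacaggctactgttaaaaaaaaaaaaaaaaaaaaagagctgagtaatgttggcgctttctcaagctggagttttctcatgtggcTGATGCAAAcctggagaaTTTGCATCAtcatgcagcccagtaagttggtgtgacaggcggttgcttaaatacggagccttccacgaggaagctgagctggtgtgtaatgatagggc

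Counted from the start, TGACNNNGC was found at bases -134 to -126 of Gclm, -92 to -84 of this Txnrd1 window, 28 to 36 of Srxn1 and -133 to -125 of Prdx1, each time on the strand opposite to the gene. In Prdx1 the matched letters were TGACTCAGC, which overlap a TGANTCA match. TGAGNNNGC was found in Srxn1 at -158 to -150 and, as TGAGTCAGC, at -45 to -37, which also overlaps a TGANTCA match. Prdx1 held it at 15 to 23 and Slc7a11 at -97 to -89, where it is left in lower case. The Slc7a11 window held TGATGCAAA on each strand, at -66 to -58 and at -48 to -40. The windows of Nqo1 and Sqstm1 and the other windows of Txnrd1 held none of the 4 motifs. Such matches describe letters in these windows and were not measured as bound sites.

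The 18 libraries held 24530070 to 34110392 estimated gene counts, and no pair of libraries of a group agreed within sampling noise, with chi-square over degrees of freedom of 9.66 to 75.2. Timd4, the gene of the sorted protein, was at 169 to 219 CPM (counts scaled to library size) in anti-Tim-4, 280.4 to 319.5 CPM in isotype and 622 to 886 CPM in no-tumor Tim-4high libraries, and at 9.13 to 109 CPM over all Tim-4low libraries. All 7 macrophage markers checked (Adgre1, Csf1r, Cd14, Lyz2, Fcgr1, Mertk and Cd68) were expressed in every group. Their summed level was 12694 to 13810.0 CPM in isotype Tim-4low and 23666 to 26651 CPM in no-tumor Tim-4low libraries, and 13628 to 14594 CPM in isotype Tim-4high and 31094 to 40642 CPM in no-tumor Tim-4high libraries, with Lyz2 as the largest term. Markers of other cells also moved with tumor. The summed level of the 5 red cell markers (hemoglobin genes and Alas2) was 21.7 to 87.4 CPM in isotype Tim-4low, 13.1 to 36.6 CPM in isotype Tim-4high, 1.08 to 6.42 CPM in no-tumor Tim-4low and 1.64 to 6.36 CPM in no-tumor Tim-4high libraries. The 4 B cell markers summed to 5.39 to 28.2 CPM in isotype Tim-4low and 59.8 to 643 CPM in no-tumor Tim-4low libraries, and to 2.75 to 21.8 CPM in isotype Tim-4high and 52.7 to 195 CPM in no-tumor Tim-4high libraries. The 5 fibroblast and mesothelial markers summed to 18.7 to 64.2 CPM in isotype Tim-4low and 7.44 to 37.7 CPM in isotype Tim-4high libraries, against at most 0.564 CPM without tumor. The 4 monocyte markers summed to 375 to 574 CPM in isotype Tim-4high and 93.4 to 170.1 CPM in no-tumor Tim-4high libraries. The isotype libraries 3 of both populations stood apart, with summed neutrophil markers of 326 CPM against 79.6 and 103 CPM in the other Tim-4low and 312 CPM against 98.5 and 85.4 CPM in the other Tim-4high isotype libraries. T cell markers summed to 41.7 and 34.1 CPM in those 2 libraries and to at most 10.8 CPM in the other 4 isotype libraries, and calls of the 10 targets that are lost without both are given without them too. The no-tumor libraries 1 of both populations also stood apart. B cell markers summed to 643 CPM against 59.8 and 83.8 CPM in the other Tim-4low and 195 CPM against 52.7 and 61.9 CPM in the other Tim-4high no-tumor libraries. The 4 mast cell markers summed to 101 CPM against 2.79 and 3.83 CPM in Tim-4low and 63.7 CPM against 6.28 and 8.07 CPM in Tim-4high cells. Every one of the red cell, B cell, fibroblast and monocyte markers was detected in at least 1 library of each isotype and no-tumor group. The part of these cells in the results below was not tested, and in bulk samples fewer cells of a type and less RNA per cell cannot be told apart.

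The first question was whether the antioxidant targets differed between macrophages of tumor-bearing mice given isotype antibody and macrophages of mice without tumor. In Tim-4low cells 8 of the 10 genes were called higher and none lower, where 49.8% of the 16609 genes tested were called in either direction, 25.2% higher and 24.6% lower. In Tim-4high cells 7 of the 10 were called higher and none lower, where 51.5% of all genes tested were called, 27.3% higher and 24.1% lower. A call is an adjusted p under 0.05 in edgeR's quasi-likelihood test with Benjamini-Hochberg adjustment over all genes tested. The median log2 fold change of the 10 genes was 1.28 in Tim-4low and 0.97 in Tim-4high cells, against -0.02 and -0.01 over all genes tested. The changes were of unequal size, with those of Hmox1, Srxn1 and Slc7a11 above 1 on the log2 scale in both populations, a small rise of Sqstm1 and no call for Gclc or Nqo1, as the plot of all 18 libraries shows.

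**Figure D1:**
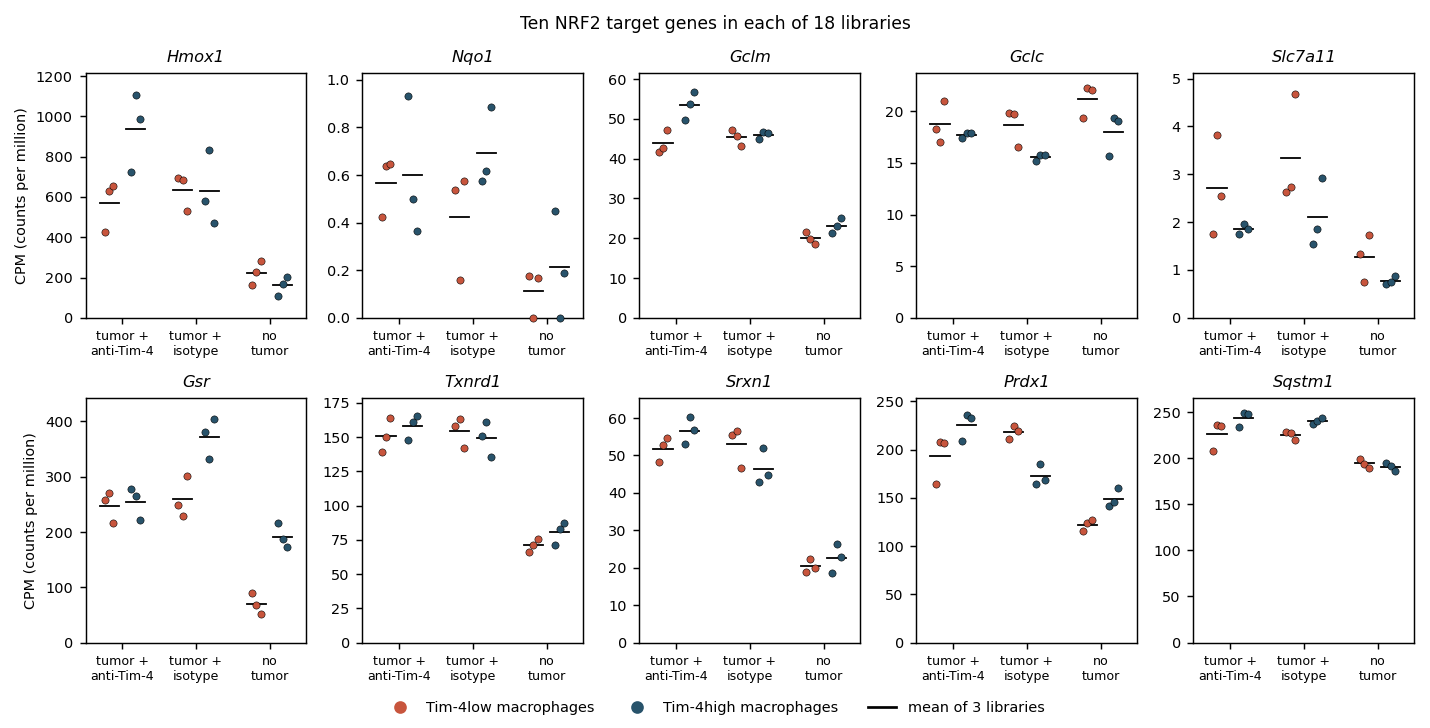
Each panel gives the CPM of 1 gene on a linear axis from 0, with 1 point per library, Tim-4low in red left of Tim-4high in blue, and a bar at the mean of 3 libraries. For Hmox1, Gclm, Gsr, Txnrd1, Srxn1 and Sqstm1 the tumor libraries of each population lie above its no-tumor libraries, while those of Gclc overlap with them.

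Slc7a11, the cystine importer subunit that brings in the limiting precursor of glutathione, was expressed at low level throughout. It had 2.63, 2.74 and 4.67 CPM in isotype Tim-4low libraries and 1.33, 0.752 and 1.74 CPM in no-tumor Tim-4low libraries. In Tim-4high cells it had 1.53, 1.85 and 2.93 CPM with isotype and 0.710, 0.750 and 0.868 CPM without tumor. The groups did not overlap in either population, with isotype Tim-4low library 3 the highest of all 18. The log2 fold change was 1.39 ± 0.34 (SE) in Tim-4low cells (adjusted p = 0.0034) and 1.43 ± 0.37 in Tim-4high cells (adjusted p = 0.00411).

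Gclc and Gclm encode the catalytic and the modifier subunit of glutamate-cysteine ligase, the rate-limiting enzyme of glutathione synthesis, and the first was not called while the second was. Gclm had 47.3, 45.6 and 43.1 CPM in isotype Tim-4low and 21.6, 19.9 and 18.6 CPM in no-tumor Tim-4low libraries. It had 44.9, 46.8 and 46.4 CPM in isotype Tim-4high and 21.2, 23.1 and 25.1 CPM in no-tumor Tim-4high libraries. Every tumor library lay far above every no-tumor library, and the log2 fold change was 1.18 ± 0.08 in Tim-4low (adjusted p = 2.32e-08) and 0.99 ± 0.08 in Tim-4high cells (adjusted p = 1.07e-07). Gclc had 19.8, 19.7 and 16.5 CPM in isotype Tim-4low libraries, against 19.3, 22.2 and 22.1 CPM in no-tumor Tim-4low libraries. In Tim-4high cells Gclc had 15.2, 15.8 and 15.7 CPM with isotype and 15.7, 19.3 and 19.0 CPM without tumor. These groups overlapped in CPM, and Gclc was not called. Its log2 fold changes were -0.18 ± 0.10 (adjusted p = 0.137) and -0.21 ± 0.10 (adjusted p = 0.0934), with 95% intervals of -0.39 to 0.03 and -0.42 to 0.00. Without no-tumor library 1 the Tim-4high difference was called as a fall (-0.31, adjusted p = 0.0208), and without both no-tumor libraries 1 so was the Tim-4low difference (-0.25, adjusted p = 0.0429). On the TPM scale, which divides by transcript length, Gclm stood at 48.1 ± 3.95 and Gclc at 8.04 ± 0.210 in isotype Tim-4high libraries. Without tumor they stood at 30.7 ± 4.98 and 10.6 ± 1.22 (SD, n = 3). The Gclm value sums 6 transcripts. Of these, 1 of 762 bases, not annotated as protein-coding, held 9.73% of Gclm's estimated transcript counts with isotype and 16.2% without tumor. Gclc had 1 transcript, so the TPM values do not compare the coding mRNA of the subunits alone.

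Gsr encodes glutathione reductase, which regenerates reduced glutathione with NADPH. It had 249.5, 229 and 301 CPM in isotype Tim-4low libraries and 89.4, 67.9 and 51.6 CPM in no-tumor Tim-4low libraries. In Tim-4high cells it had 381, 332 and 404 CPM with isotype and 217, 187 and 172 CPM without tumor. All tumor libraries were higher than the no-tumor libraries of their population, and the no-tumor Tim-4low libraries stood apart as the lowest of all. The log2 fold change was 1.90 ± 0.17 in Tim-4low (adjusted p = 5.46e-07) and 0.96 ± 0.17 in Tim-4high cells (adjusted p = 0.000231).

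Txnrd1, the cytosolic thioredoxin reductase, had 158, 163 and 142 CPM in isotype Tim-4low and 65.9, 71.3 and 76.0 CPM in no-tumor Tim-4low libraries. It had 151, 161 and 136 CPM in isotype Tim-4high and 71.4, 83.3 and 87.5 CPM in no-tumor Tim-4high libraries. The tumor libraries were higher without overlap, by 1.12 ± 0.10 (adjusted p = 2.66e-07) and 0.89 ± 0.09 (adjusted p = 2.12e-06) on the log2 scale in Tim-4low and Tim-4high cells. Srxn1, sulfiredoxin, which repairs overoxidised peroxiredoxins, had 55.5, 56.6 and 46.7 CPM in isotype Tim-4low and 18.9, 22.2 and 19.9 CPM in no-tumor Tim-4low libraries. It had 42.8, 52.0 and 44.7 CPM in isotype Tim-4high and 18.6, 26.2 and 22.9 CPM in no-tumor Tim-4high libraries. It too rose without overlap, by 1.38 ± 0.12 in Tim-4low (adjusted p = 2.72e-07) and 1.04 ± 0.12 in Tim-4high cells (adjusted p = 3.42e-06).

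Prdx1, a peroxiredoxin that reduces hydrogen peroxide and is a substrate of sulfiredoxin, was called in Tim-4low cells alone. It had 211, 225 and 219 CPM in isotype Tim-4low and 115, 124 and 127 CPM in no-tumor Tim-4low libraries. In Tim-4high cells it had 165, 185 and 168 CPM with isotype and 141, 146 and 159.9 CPM without tumor. The Tim-4low groups lay far apart, while the lowest isotype Tim-4high library was only just above the highest no-tumor one. In TPM the Tim-4high groups overlapped, at 200 to 239 with isotype and 203 to 222 without tumor. The log2 fold change was 0.84 ± 0.09 in Tim-4low cells (adjusted p = 2.4e-06) and 0.21 ± 0.09 in Tim-4high cells, where it was not called (adjusted p = 0.0587). It was called there without no-tumor Tim-4high library 3 (0.27, adjusted p = 0.0403). Processed pseudogenes resemble Prdx1, so its counts are less certain than those of single-copy genes.

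Hmox1, haem oxygenase 1, which opens the haem ring to biliverdin, iron and carbon monoxide, showed the largest rise of the 10 genes in Tim-4high cells. It had 692, 682 and 533 CPM in isotype Tim-4low libraries and 165, 226 and 283 CPM in no-tumor Tim-4low libraries. In Tim-4high cells it had 581, 835 and 473 CPM with isotype and 109.8, 169.6 and 205 CPM without tumor. The groups did not overlap although the libraries of a group varied widely, and the log2 fold change was 1.50 ± 0.27 in Tim-4low (adjusted p = 0.000295) and 1.96 ± 0.27 in Tim-4high cells (adjusted p = 2.71e-05). The red cell marker sums given above were also higher in the tumor libraries, and their part in the Hmox1 result was not tested.

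Nqo1, NAD(P)H quinone dehydrogenase 1, often used as a readout of NRF2 activity in other tissues, was barely detected. Its estimated counts were 17, 5 and 18 in isotype Tim-4low libraries, 5, 0 and 6 in no-tumor Tim-4low libraries, 15, 17 and 23 in isotype Tim-4high libraries and 12, 0 and 5 in no-tumor Tim-4high libraries. The highest of all 18 libraries reached 0.932 CPM, the Tim-4low groups overlapped and the Tim-4high groups did not. Its log2 fold changes of 1.86 ± 0.84 and 1.67 ± 0.77 in Tim-4low and Tim-4high cells were not called (adjusted p = 0.0764 and 0.0824). It was called in Tim-4low cells without isotype library 2 (2.26, adjusted p = 0.0455) and in Tim-4high cells without no-tumor library 1 (2.79, adjusted p = 0.0242). DESeq2 also called it in Tim-4low cells (adjusted p = 0.0416).

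Sqstm1, or p62, links ubiquitinated cargo to autophagosomes and competes with NRF2 for KEAP1. It had 228, 227 and 220.1 CPM in isotype Tim-4low and 199, 194 and 189.7 CPM in no-tumor Tim-4low libraries. In Tim-4high cells it had 237, 240.0 and 243 CPM with isotype and 195, 192 and 186 CPM without tumor. The change was small but the libraries were close to each other and the groups did not overlap in CPM. It was 0.21 ± 0.06 (adjusted p = 0.00702) and 0.33 ± 0.06 (adjusted p = 0.000241) on the log2 scale in Tim-4low and Tim-4high cells. In TPM the Tim-4low groups overlapped, at 203 to 223 with isotype and 191 to 211 without tumor. The Tim-4high groups did not, at 208 to 216 and 186 to 198 TPM. The TMM factors within CPM were 1.004 to 1.012 in isotype Tim-4low and 1.071 to 1.124 in no-tumor Tim-4low libraries. In Tim-4high libraries they were 0.904 to 0.926 with isotype and 1.00 to 1.03 without tumor. A lower factor gives a higher CPM. Every alternative used such factors, so small changes against no-tumor libraries, as of Sqstm1, depend on them. The called results of this comparison, 8 in Tim-4low and 7 in Tim-4high cells, were called under each of the 13 alternative settings.

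Macrophages of tumor-bearing mice given anti-Tim-4 were set against the same no-tumor libraries, so the values stand beside those with isotype and do not count as a second observation. In Tim-4low cells 9 of the 10 genes were called higher (46.7% of all genes tested were called, 23.8% higher and 22.9% lower) and in Tim-4high cells 7 (52.9% called, 27.4% higher and 25.5% lower), with none lower. The median log2 fold change of the 10 genes was 1.11 in Tim-4low and 1.09 in Tim-4high cells, against -0.03 and -0.02 over all genes tested. Hmox1 reached 723, 1106 and 985 CPM in anti-Tim-4 Tim-4high libraries, a log2 fold change of 2.54 ± 0.28 over no tumor. In anti-Tim-4 Tim-4low libraries it had 428, 629 and 656 CPM and 1.35 ± 0.27. The anti-Tim-4 Tim-4high libraries 2 and 3 were the highest of all 18. Gclm, Txnrd1 and Srxn1 changed by 1.13, 1.09 and 1.35 in Tim-4low and by 1.20, 0.97 and 1.33 in Tim-4high cells. Prdx1, not called with isotype in Tim-4high cells, was called here in both populations (0.66 ± 0.09 and 0.60 ± 0.09). Gsr rose by 1.83 ± 0.17 in Tim-4low cells but was not called in Tim-4high cells (0.41 ± 0.17, adjusted p = 0.0521), where 6 of the 12 alternatives called it, namely leaving out anti-Tim-4 library 3 (0.51, adjusted p = 0.0342), no-tumor library 1 (0.0426) or both no-tumor libraries 1 (0.0127), the compared groups alone (0.029), DESeq2 (0.0397) and no filter on low counts (0.0403). Nqo1 was called in Tim-4low cells alone among the 4 comparisons with no-tumor libraries (2.28 ± 0.82, adjusted p = 0.0319), from estimated counts of 14, 19 and 22 with anti-Tim-4 against the 5, 0 and 6 without tumor. That call was lost without anti-Tim-4 library 2 (adjusted p = 0.0713), anti-Tim-4 library 3 (0.0687) or no-tumor library 2 (0.0942). In Tim-4high cells Nqo1 was at 1.46 ± 0.78 (adjusted p = 0.128) and was called without no-tumor library 1 (2.57, adjusted p = 0.0367). Slc7a11 rose by 1.08 ± 0.34 in Tim-4low cells, a call lost without anti-Tim-4 library 2 (0.76, adjusted p = 0.103), no-tumor library 2 (0.84, adjusted p = 0.0712) or with the compared groups alone (1.10, adjusted p = 0.0611), and by 1.26 ± 0.37 in Tim-4high cells. Sqstm1 rose by 0.22 ± 0.06 and 0.35 ± 0.06 in Tim-4low and Tim-4high cells, the Tim-4low call being lost when only the compared groups entered the fit (adjusted p = 0.064). Gclc was at -0.18 ± 0.10 and -0.02 ± 0.10 and was not called.

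**Figure D2:**
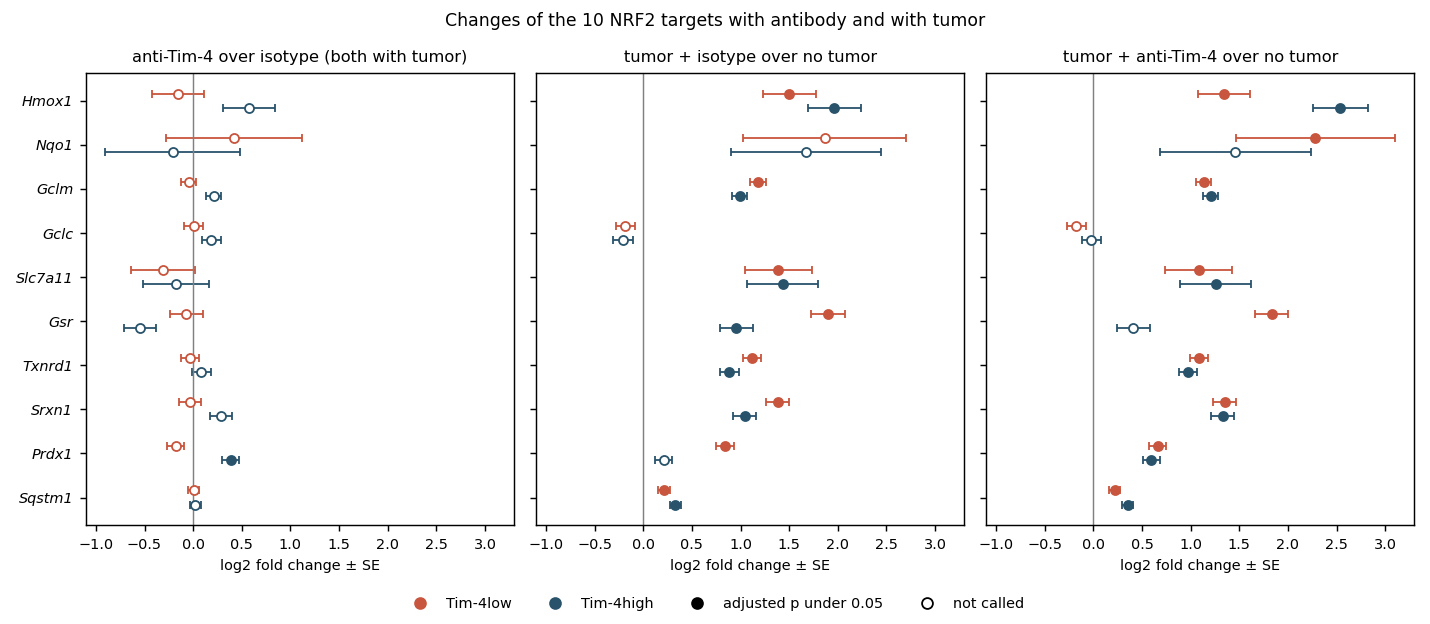
Points are log2 fold changes with SE bars for the 10 genes, Tim-4low in red above Tim-4high in blue, and filled points passed an adjusted p of 0.05. Most points of the 2 tumor panels lie right of 0 and are filled, and in the panel of anti-Tim-4 over isotype the only filled point is Prdx1 in Tim-4high cells. The 3 panels share libraries and are not independent of each other.

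The next question was what the antibody against Tim-4 did to these genes within tumor-bearing mice. In Tim-4high cells 1 of the 10 genes, Prdx1, was called higher and none lower, where 7.97% of all genes tested were called, 4.3% higher and 3.67% lower. The median log2 fold change of the 10 genes was 0.14. Prdx1 had 209, 236 and 232 CPM in anti-Tim-4 Tim-4high libraries and 165, 185 and 168 CPM in isotype Tim-4high libraries. Every anti-Tim-4 library was above every isotype library, and the log2 fold change was 0.39 ± 0.09 (adjusted p = 0.0208). The call was lost without anti-Tim-4 library 2 (adjusted p = 0.0698), anti-Tim-4 library 3 (0.113), isotype library 1 (0.104) or isotype library 3 (0.0854), with log2 fold changes between 0.35 and 0.37 there. Without both isotype libraries 3 Prdx1 was at 0.37 (adjusted p = 0.0885). Gsr had 277, 265 and 222 CPM with anti-Tim-4 and 381, 332 and 404 CPM with isotype in Tim-4high cells. Its anti-Tim-4 libraries were all below its isotype libraries, but the difference of -0.55 ± 0.17 was not called in the fit over all groups (adjusted p = 0.0571). It was called by edgeR on the compared groups alone (adjusted p = 0.0115) and by DESeq2 (adjusted p = 0.0172). The authors' deposited table lists Gsr at a fold of -1.46 (FDR 2.65e-06), Prdx1 at 1.31 (FDR 3.46e-05) and Srxn1 at 1.22 (FDR 0.0314) for Tim-4high cells of mice given anti-Tim-4 over those given isotype, where a negative fold is a decrease.

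Srxn1 had 53.0, 60.2 and 56.7 CPM in anti-Tim-4 and 42.8, 52.0 and 44.7 CPM in isotype Tim-4high libraries, and Gclm had 49.7, 53.8 and 56.6 CPM in anti-Tim-4 and 44.9, 46.8 and 46.4 CPM in isotype Tim-4high libraries. Those anti-Tim-4 libraries of both genes were above the isotype libraries without overlap, but neither difference was called here (0.28 ± 0.11, adjusted p = 0.130, and 0.21 ± 0.08, adjusted p = 0.0931). Hmox1 was at 0.58 ± 0.27 with overlapping groups (adjusted p = 0.185). Txnrd1, Sqstm1, Gclc, Slc7a11 and Nqo1 were at 0.09, 0.02, 0.19, -0.18 and -0.21 on the log2 scale. For Txnrd1 and Sqstm1 the 95% intervals of -0.11 to 0.28 and -0.10 to 0.15 are narrow, and for Nqo1 the interval of -1.68 to 1.26 leaves both directions possible.

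Summed markers of other cells also separated these Tim-4high groups without overlap. Neutrophil markers summed to 50.3 to 62.0 CPM in anti-Tim-4 Tim-4high libraries, against 85.4 to 312 CPM in isotype Tim-4high libraries, dendritic cell markers to 4.21 to 5.63 CPM, against 8.77 to 49.9 CPM, and red cell markers to 8.35 to 10.3 CPM, against 13.1 to 36.6 CPM. Fibroblast and mesothelial markers summed to 3.31 to 5.01 CPM with anti-Tim-4, against 7.44 to 37.7 CPM with isotype, and T cell markers to 3.89 to 4.47 CPM, against 5.11 to 34.1 CPM. Monocyte markers, at 539 to 599 CPM with anti-Tim-4 and 375 to 574 CPM with isotype, overlapped, and so did the macrophage sums of 13689 to 15013 and 13628 to 14594 CPM. Their part in the differences between these groups was not tested.

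In Tim-4low cells none of the 10 genes was called by edgeR for anti-Tim-4 over isotype, where 0.325% of all genes tested were called (0.223% higher and 0.102% lower), none had an unadjusted p under 0.05, and DESeq2 called 0. Prdx1 had 165, 208 and 207 CPM in anti-Tim-4 and 211, 225 and 219 CPM in isotype Tim-4low libraries, so its anti-Tim-4 libraries were the lower ones (-0.18 ± 0.09, adjusted p = 0.428). Gsr had 258, 269.9 and 216 CPM in anti-Tim-4 and 249.5, 229 and 301 CPM in isotype Tim-4low libraries, with overlap. The log2 differences of Gclm, Gclc, Txnrd1, Srxn1 and Sqstm1 were between -0.05 and 0.01, with Sqstm1 known to within -0.12 to 0.13. Hmox1 was at -0.16 ± 0.26, Slc7a11 at -0.31 ± 0.33 and Nqo1 at 0.42 ± 0.70. Monocyte markers summed to 1123 to 1499 CPM in anti-Tim-4 Tim-4low libraries, against 1528 to 1662 CPM in isotype Tim-4low libraries. Red cell markers summed to 13.4 to 19.1 against 21.7 to 87.4 CPM, and tumor epithelium markers to 1.48 to 1.58 against 1.78 to 4.32 CPM. The other marker sums overlapped. The part of these cells in the Tim-4low differences was not tested.

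Tim-4low and Tim-4high macrophages were then compared within each condition. Monocyte markers also differed between the populations. Their sums with anti-Tim-4 were 1123 to 1499 CPM in Tim-4low libraries against 539 to 599 CPM in Tim-4high libraries, with isotype 1528 to 1662 against 375 to 574 CPM, and without tumor 1411 to 1837 against 93.4 to 170.1 CPM. Neutrophil sums without tumor were 113 to 124 CPM in Tim-4low against 215 to 263 CPM in Tim-4high libraries. With anti-Tim-4 they were 80.7 to 116 against 50.3 to 62.0 CPM, the opposite side, and with isotype they overlapped. T cell sums without tumor were 46.1 to 110.3 CPM in Tim-4low against 5.40 to 23.8 CPM in Tim-4high libraries. Some other marker sums were also apart with anti-Tim-4 or without tumor. The part of these markers in the differences was not tested. Without tumor 2 of the 10 genes were called, both lower in Tim-4low cells, where 24.6% of all genes tested were called, 12.8% higher and 11.8% lower. Gsr had 89.4, 67.9 and 51.6 CPM in no-tumor Tim-4low and 217, 187 and 172 CPM in no-tumor Tim-4high libraries, a difference without overlap of -1.46 ± 0.17 (adjusted p = 2.17e-05). Prdx1 was at 122 ± 6.09 CPM in no-tumor Tim-4low and 149 ± 9.63 CPM in no-tumor Tim-4high libraries (SD, n = 3 each), also without overlap, and at -0.29 ± 0.09 (adjusted p = 0.0261). The Prdx1 call was made in 7 of 12 alternatives. Those that lost it included the fits without Tim-4high library 3 (adjusted p = 0.107) and without any 1 of Tim-4low libraries 1, 2 and 3 (adjusted p = 0.0951, 0.0552 and 0.0506). Libraries of the same number in a condition deviated together, and with that number as a replicate block 5 genes were called, Gsr and Prdx1 with Hmox1 (0.49, adjusted p = 0.00168), Gclc (0.24, 0.039) and Txnrd1 (-0.18, 0.0152). The count of calls over all genes tested, 4086 without the block, moved by no more than 1.5 times with it. Gclm, at -0.21 ± 0.08, was not called (adjusted p = 0.0627) but was called in 3 of 12 alternatives. These included the fits without Tim-4low library 1 (-0.27, adjusted p = 0.0336) and without Tim-4high library 1 (-0.28, adjusted p = 0.0247).

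With tumor and isotype antibody 2 genes were called, 1 in each direction, where 24.1% of all genes tested were called, 11.3% higher and 12.9% lower. Gsr was lower in Tim-4low cells, at 259.9 ± 36.9 CPM in isotype Tim-4low and 372 ± 36.9 CPM in isotype Tim-4high libraries (SD, n = 3 each; -0.52 ± 0.17, adjusted p = 0.0349). Prdx1 was higher in Tim-4low cells, at 218 ± 6.85 CPM in isotype Tim-4low and 173 ± 10.8 CPM in isotype Tim-4high libraries (0.34 ± 0.09, adjusted p = 0.0113), the opposite side to that without tumor. The Gsr call was lost without Tim-4low library 1 (adjusted p = 0.103) or 2 (0.141) or Tim-4high library 1 (0.0903) or 3 (0.105). The Prdx1 call was lost without Tim-4low library 2 (0.0502) or Tim-4high library 1 (0.062). Without both isotype libraries 3 neither was called (adjusted p = 0.0703 for Gsr and 0.0833 for Prdx1). With the replicate block both had an adjusted p under 0.001 (0.000275 and 0.000485), and Gclc (0.26, 0.0288) and Slc7a11 (0.67, 0.033) were called as well. Gclc was also called without Tim-4low library 3 (0.34, adjusted p = 0.0299).

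With tumor and anti-Tim-4 edgeR called none of the 10 genes, where 1.39% of all genes tested were called (0.542% higher and 0.849% lower), 3 had an unadjusted p under 0.05 and DESeq2 called 1, Gclm. Hmox1 had 428, 629 and 656 CPM in anti-Tim-4 Tim-4low and 723, 1106 and 985 CPM in anti-Tim-4 Tim-4high libraries. Gclm had 41.7, 42.6 and 47.3 CPM in the Tim-4low and 49.7, 53.8 and 56.6 CPM in the Tim-4high libraries of this condition, and Prdx1 had 165, 208 and 207 CPM in the Tim-4low and 209, 236 and 232 CPM in the Tim-4high libraries. The Tim-4low libraries were the lower ones in all 3 without overlap. The share of all genes tested without such overlap was not computed, here or in the other comparisons. With the replicate block these 3 were called, at -0.72, -0.28 and -0.23 on the log2 scale (adjusted p = 0.00142, 0.0421 and 0.0265), against adjusted p-values of 0.238, 0.0863 and 0.276 without it. Over all genes tested 1182 were called with the block and 231 without it. Gsr, apart in the other conditions, was at 248 ± 28.4 CPM in anti-Tim-4 Tim-4low libraries and at 255 ± 28.9 CPM in their Tim-4high counterparts (SD, n = 3 each), a log2 difference of -0.04 ± 0.17 with a 95% interval of -0.40 to 0.32.

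**Figure D3:**
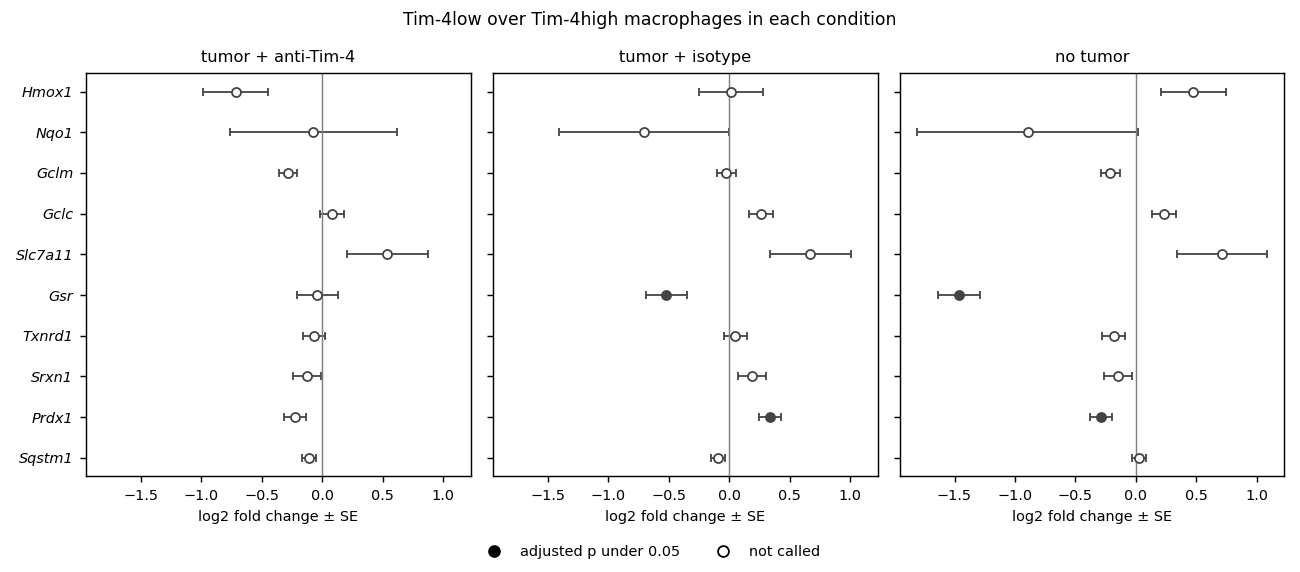
Points are log2 fold changes of Tim-4low over Tim-4high cells with SE bars for the 10 genes in the 3 conditions, and filled points passed an adjusted p of 0.05. Gsr lies far left of 0 without tumor, less far with isotype and at 0 with anti-Tim-4, and Prdx1 is left of 0 without tumor and right of 0 with isotype.

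Whether the tumor difference itself depended on the population was tested as an interaction. For isotype over no tumor, 2 of the 10 genes had a larger rise in Tim-4low than in Tim-4high cells, where 3.53% of all genes tested were called, 1.32% with a larger and 2.21% with a smaller value in Tim-4low cells. The difference between the log2 fold changes was 0.63 ± 0.13 for Prdx1 (adjusted p = 0.0115) and 0.95 ± 0.24 for Gsr (adjusted p = 0.0391). The Prdx1 call held without each single library and was lost when both isotype libraries 3 were left out (adjusted p = 0.0644). The Gsr call was lost in 11 of the 12 fits that leave out 1 library, all except the one without no-tumor Tim-4low library 1, with values between 0.78 and 1.03 and adjusted p up to 0.0885. It was also lost with the compared groups alone and without both isotype libraries 3 (0.89, adjusted p = 0.127). With the replicate block the adjusted p was 0.000296 for Gsr and 0.000481 for Prdx1, where 1858 of all genes tested were called, against 587 without it. For anti-Tim-4 over isotype, Prdx1 alone was called among the 10 genes, at -0.56 ± 0.13 (adjusted p = 0.0352), where 2.93% of all genes tested were called, 1.67% with a larger and 1.26% with a smaller value in Tim-4low cells. The call was lost without isotype Tim-4low library 1 or 2, isotype Tim-4high library 1 or 3, anti-Tim-4 Tim-4low library 1 or anti-Tim-4 Tim-4high library 2 or 3, with values between -0.59 and -0.46 and adjusted p-values between 0.0664 and 0.114. Without both isotype libraries 3 it was at -0.54 (adjusted p = 0.0883). The replicate block added Hmox1 (-0.76, adjusted p = 0.00234) and Gsr (0.48, adjusted p = 0.0108) to it, and without the block these had adjusted p-values of 0.305 and 0.289. Over all genes tested 2609 were called for this interaction with the block and 487 without it. For Hmox1, Gclm, Txnrd1, Srxn1, Slc7a11, Gclc, Nqo1 and Sqstm1 the tumor difference was not shown to differ between populations.

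The regulators of the pathway were called about as often as all genes. With isotype tumor over no tumor 4 of the 8 rose and none fell in Tim-4low cells, near the 49.8% of all genes called there, and 2 rose and 3 fell in Tim-4high cells, near the 51.5% called there. Over the 13 alternatives 2 to 4 rose in Tim-4low cells (2 without no-tumor Tim-4low library 1 or without both no-tumor libraries 1), and 2 rose and 2 to 4 fell in Tim-4high cells. Nfe2l2, which encodes NRF2 itself, had 133, 145 and 135 CPM in isotype Tim-4low and 92.1, 112 and 121 CPM in no-tumor Tim-4low libraries, a rise of 0.35 ± 0.12 (adjusted p = 0.0228) that was lost without no-tumor library 1 (0.25, adjusted p = 0.104) or isotype library 2 (0.32, adjusted p = 0.0744). In Tim-4high cells it had 112, 123 and 114 CPM with isotype and 101, 123 and 133 CPM without tumor and was not called (-0.03 ± 0.12, adjusted p = 0.843). With anti-Tim-4 it had 149, 150.0 and 171 CPM in Tim-4high cells, above all 3 isotype libraries (0.43 ± 0.12, adjusted p = 0.0382), a call lost without any single one of the 6 libraries compared (adjusted p from 0.0554 to 0.187). Keap1, the inhibitor, rose by 0.34 ± 0.10 in Tim-4low (adjusted p = 0.0134, and 0.24, adjusted p = 0.0699, without no-tumor library 1) and 0.38 ± 0.10 in Tim-4high cells (adjusted p = 0.00615) with isotype tumor over no tumor.

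Bach1, the competing repressor, fell to 172, 172 and 160.4 CPM in isotype Tim-4high libraries, against 239.7, 232 and 239.9 CPM in no-tumor Tim-4high libraries (-0.50 ± 0.09, adjusted p = 0.000364). In Tim-4low cells it had 233, 225 and 191 CPM with isotype and 213, 228 and 202 CPM without tumor, with overlap (0.01 ± 0.09, adjusted p = 0.916). The interaction was 0.51 ± 0.13 (adjusted p = 0.0432) and was lost in 10 of the 12 fits that leave out 1 library, with adjusted p up to 0.116. Mafg, a small MAF partner, was at 0.33 ± 0.10 in Tim-4low (adjusted p = 0.0115) and -0.30 ± 0.10 in Tim-4high cells (adjusted p = 0.0181), the Tim-4high call being lost without no-tumor library 3 (-0.15, adjusted p = 0.139) or isotype library 3 (-0.27, adjusted p = 0.064). Its interaction was 0.63 ± 0.14 (adjusted p = 0.0203), lost without isotype Tim-4low library 1 or 2 or isotype Tim-4high library 3 (adjusted p = 0.0596, 0.0548 and 0.0598). The largest regulator change was that of Maff, another small MAF, at 2.91 ± 0.33 and 2.29 ± 0.34 from 0.628 to 0.939 CPM and 0.261 to 1.30 CPM without tumor.

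**Figure D4:**
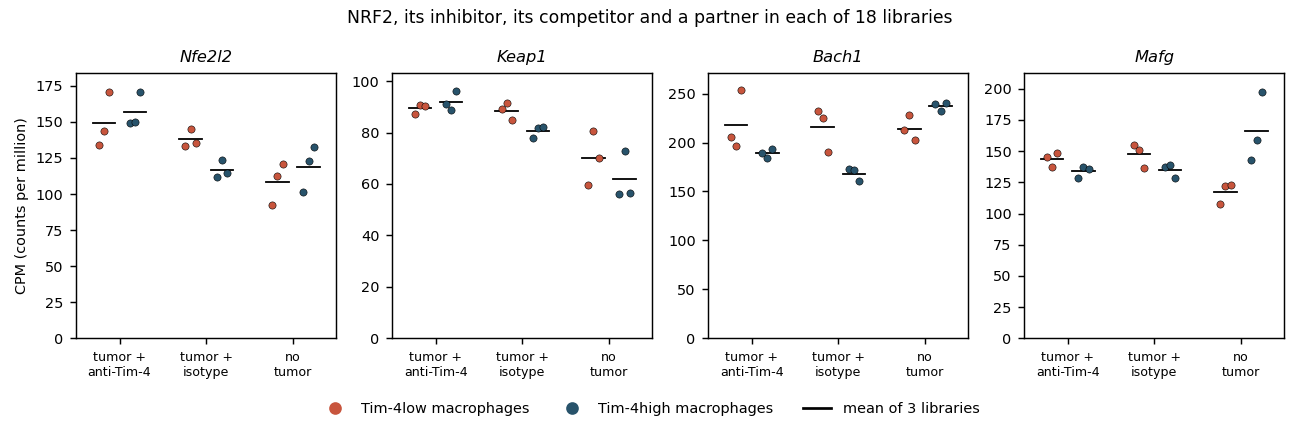
Each panel gives the CPM of 1 regulator on a linear axis from 0, with 1 point per library, Tim-4low in red left of Tim-4high in blue, and bars at the means of 3 libraries. Bach1 of isotype Tim-4high libraries lies at 160.4 to 172 CPM, below the 232 to 239.9 CPM of no-tumor Tim-4high libraries, and the Tim-4low libraries overlap.

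Enzymes that work beside the 10 targets were counted in the same comparison of isotype tumor over no tumor, with the calls of all genes at the percentages given above. Where a gene has a pair of log2 fold changes, the first is that of Tim-4low and the second that of Tim-4high cells. Of the 6 pentose phosphate and NADPH enzymes (G6pdx, Pgd, Idh1, Me1, Taldo1 and Tkt), all 6 rose in Tim-4low and all 6 in Tim-4high cells, with median log2 fold changes of 0.84 and 1.19, and so they did under each of the 13 alternatives. The first 4 form NADPH, the cofactor of glutathione and thioredoxin reductase, while Taldo1 and Tkt belong to the non-oxidative branch of the pathway and form none. The 3 with the smallest p were Pgd, which forms NADPH in the oxidative branch (1.29 ± 0.09 and 1.44 ± 0.09), transaldolase Taldo1 (0.98 ± 0.10 and 1.41 ± 0.10) and transketolase Tkt (0.65 ± 0.08 and 0.97 ± 0.08). Of 14 tested glutathione enzymes and transporters, 10 rose and 1 fell in Tim-4low cells, and 12 rose and 1 fell in Tim-4high cells. Glutaredoxin Glrx rose by 2.19 ± 0.21 and 2.94 ± 0.22, and glutathione synthetase Gss by 0.95 ± 0.11 and 0.78, while the glutathione transferase Gstm1 fell, at -0.58 ± 0.09 and -1.05 ± 0.09. Of 10 other thioredoxin and peroxiredoxin genes, 6 rose and 3 fell in Tim-4low cells, and 5 rose and 2 fell in Tim-4high cells. Thioredoxin Txn1, the substrate of Txnrd1, rose by 1.92 ± 0.11 and 1.27 ± 0.11, Prdx2 by 0.74 ± 0.08 and 1.03 ± 0.08, and the thioredoxin inhibitor Txnip fell, at -1.35 ± 0.19 and -1.48 ± 0.19.

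Of the 7 haem and iron partners of Hmox1, 4 rose and 1 fell in Tim-4low cells, and 4 rose and none fell in Tim-4high cells. The ferritin chains Ftl1 (1.00 ± 0.10 and 1.11 ± 0.10) and Fth1 (0.94 ± 0.13 and 1.21 ± 0.13), which store the iron that haem breakdown releases, were called in both, and both have processed pseudogenes that can share reads. Of the 7 tested genes of the amino acid response, which also acts on Slc7a11, 4 rose and 2 fell in Tim-4low cells, and 4 rose and 3 fell in Tim-4high cells. Slc3a2, the partner subunit of Slc7a11, rose by 1.45 ± 0.09 and 1.01 ± 0.09, and Sesn2 by 0.87 ± 0.10 and 0.96 ± 0.10. The mRNA of Atf4, the factor of that response, fell, at -0.99 ± 0.15 and -1.14 ± 0.15. Of the 9 autophagy partners of Sqstm1, 5 rose and 1 fell in Tim-4low cells, and 4 rose and 1 fell in Tim-4high cells, led by the receptor Tax1bp1 at 0.61 ± 0.05 and 0.51 ± 0.05.

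Other genes known as NRF2 targets did not all follow. Of 5 detoxifying enzymes tested, 2 rose and 1 fell in Tim-4low cells, and 3 rose and 1 fell in Tim-4high cells. The gene that fell was Ephx1, microsomal epoxide hydrolase, at -3.03 ± 0.23 (adjusted p = 1.11e-07) and -2.61 ± 0.23 (adjusted p = 3.37e-07), and Akr1b8, an aldo-keto reductase, rose by 2.11 ± 0.42 and 1.48 ± 0.42, the Tim-4high call being lost without isotype library 2 (1.11, adjusted p = 0.0556). Of the 4 enzymes that remove superoxide and peroxide, 2 rose and 1 fell in Tim-4low and 2 rose and 2 fell in Tim-4high cells, where catalase Cat was called at -0.48 ± 0.09, while in Tim-4low cells it was at -0.21 ± 0.09 and not called. Of the 7 genes that produce superoxide or nitric oxide, 4 rose in Tim-4low and 5 in Tim-4high cells and none fell. Nos2, inducible nitric oxide synthase, had 49.3 to 87.6 CPM in isotype Tim-4low and 0.138 to 0.845 CPM in no-tumor Tim-4low libraries, and 48.1 to 78.1 CPM in isotype Tim-4high and 0.0374 to 2.76 CPM in no-tumor Tim-4high libraries.

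Counts of 4 of these lists moved by more than 1.5 times under some alternative. Of the autophagy partners, 3 rose in Tim-4low cells with the compared groups alone, 3 rose and 2 fell without isotype library 3 or both isotype libraries 3, 2 rose without no-tumor library 3, and 5 rose and 2 fell with DESeq2. In Tim-4high cells 2 of them rose without isotype library 1, no-tumor library 1, no-tumor library 3 or both no-tumor libraries 1. Of the haem and iron partners, 1 fell in Tim-4high cells without isotype library 2, no-tumor library 1 or both no-tumor libraries 1. Of the detoxifying enzymes, 2 fell in Tim-4high cells without isotype library 3 or both isotype libraries 3, and of the enzymes that remove superoxide and peroxide, none fell in Tim-4low cells without isotype library 2 and 2 fell with DESeq2. The other lists of enzymes stayed within 1.5 times over the 13 alternatives.

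**Figure D5:**
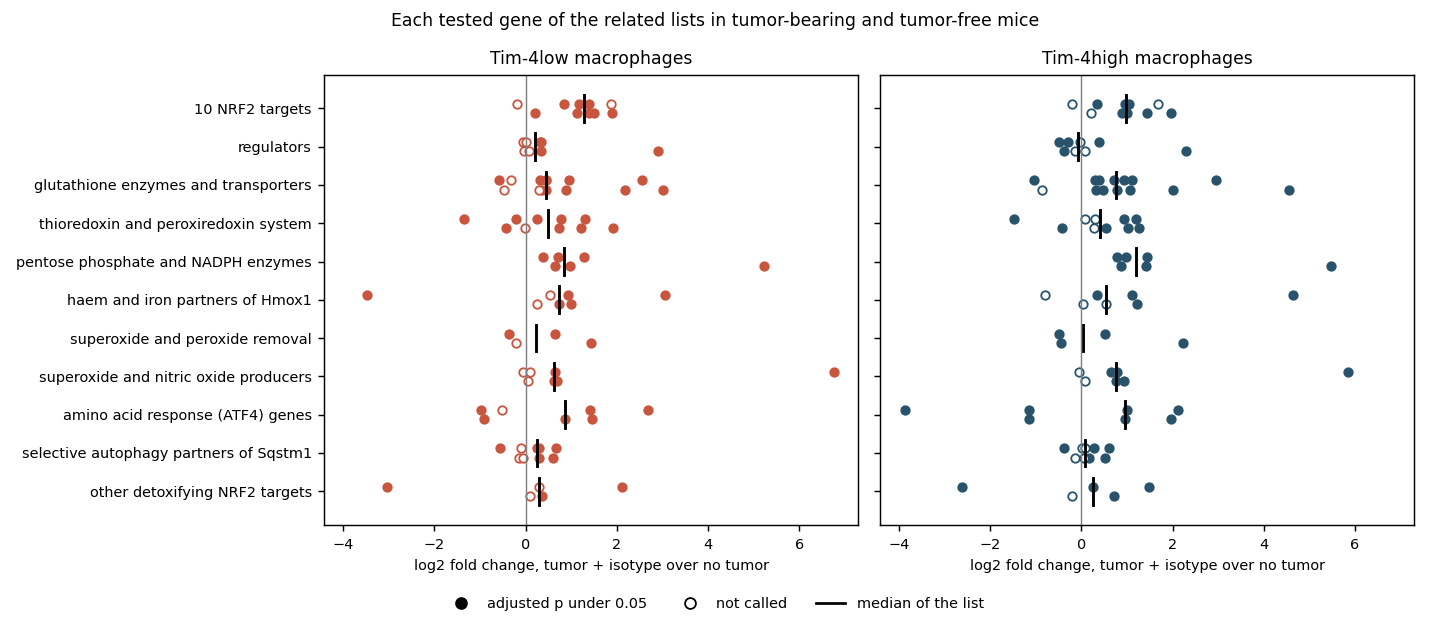
Each point is a tested gene of the named list, placed by its log2 fold change of isotype tumor over no tumor, with filled points past an adjusted p of 0.05 and a bar at the median of the list. The medians of the 10 targets (1.28 in Tim-4low, 0.97 in Tim-4high cells) and of the pentose phosphate and NADPH enzymes (0.84 and 1.19) lie right of 0, and each of the lists of detoxifying, amino acid response and thioredoxin genes holds called points on both sides of 0.

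When Tim-4high cells with anti-Tim-4 were set against those with isotype, 7.97% of all genes tested were called, and 5 of the 10 lists held a call. Of the 8 regulators 1 rose, Nfe2l2 as given above. Of the 10 thioredoxin and peroxiredoxin genes 1 rose, Prdx6 (0.56 ± 0.12, adjusted p = 0.0152), and of the 14 glutathione genes 1 rose, Gstp1 (0.49 ± 0.11, adjusted p = 0.0218). Of the 6 pentose phosphate and NADPH enzymes 2 fell, transaldolase Taldo1 (-0.51 ± 0.10, adjusted p = 0.0117) and the NADPH-forming Idh1 (-0.29 ± 0.08, adjusted p = 0.0364). Of the 7 producers of superoxide or nitric oxide 2 fell, Rac2 (-0.49 ± 0.12, adjusted p = 0.0242), a GTPase that activates the phagocyte NADPH oxidase, and Cybb (-0.45 ± 0.11, adjusted p = 0.0312), its catalytic subunit. The other 5 lists held no call by edgeR (unadjusted p under 0.05 for 5 autophagy partners, 2 amino acid response genes, 2 detoxifying enzymes, 1 haem and iron gene and none of the enzymes that remove superoxide and peroxide), and DESeq2 called 1 autophagy gene of them. The calls of Prdx6, Gstp1, Taldo1 and Idh1 were each lost without isotype library 1 (adjusted p = 0.0831, 0.104, 0.0594 and 0.126) and without isotype library 3 (0.0607, 0.0803, 0.0575 and 0.104), and without anti-Tim-4 library 3 (0.0924, 0.137, 0.0841 and 0.188). Prdx6 and Idh1 were also lost without anti-Tim-4 library 2 (0.055 and 0.0957). Those of Rac2 and Cybb were lost without isotype library 1 (0.0831 and 0.128), isotype library 3 (0.102 and 0.0761), anti-Tim-4 library 2 (0.0699 and 0.0855) or anti-Tim-4 library 3 (0.132 and 0.173).

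Levels of the 10 genes can be compared with each other only on the TPM scale, which here sums all transcripts of a gene, coding or not. In isotype Tim-4high libraries Hmox1 was highest at 732 ± 229 TPM, followed by Gsr at 246 ± 20.5, Prdx1 at 213 ± 22.6 and Sqstm1 at 210.4 ± 4.55 (SD, n = 3). The libraries of Gsr overlapped with those of Prdx1, and those of Prdx1 with those of Sqstm1, so these neighbours are not apart. Txnrd1 at 87.7 ± 10.7, Gclm at 48.1 ± 3.95, Srxn1 at 29.7 ± 3.42 and Gclc at 8.04 ± 0.210 TPM came next, and Nqo1 and Slc7a11 were below 1 TPM. Without tumor, Hmox1 (217 ± 64.1), Prdx1 (215 ± 10.6) and Sqstm1 (194 ± 6.75) of Tim-4high cells were the top 3, with the libraries of Hmox1 spread across those of the other 2. Txnrd1 was counted over 7 transcripts. The transcript of 3325 bases made up 41.9% (range 37.6% to 47.0%) of its estimated transcript counts in isotype Tim-4high and 34.3% (range 30.1% to 38.2%) in no-tumor Tim-4high libraries, and that of 3531 bases made up 29.5% (range 21.7% to 35.2%) in isotype Tim-4high and 39.4% (range 32.9% to 43.4%) in no-tumor Tim-4high libraries, with overlapping ranges and no test.

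Profiles over the 18 libraries were compared by the root mean square difference of centred log2(CPM + 0.5), which is 0 for genes that move alike. Among the 10 genes Gclm and Txnrd1 were nearest to each other (0.120), then Gclm and Srxn1 (0.153) and Txnrd1 and Srxn1 (0.155), and Hmox1 and Gclc were farthest apart (1.00). Among all tested genes with a mean of at least 10 CPM, Itgav (0.114) and Txnrd1 (0.120) were nearest to Gclm, Tmem104 (0.0977) and Nipa2 (0.0977) to Txnrd1, and Anxa4 (0.0986) and Cpne2 (0.120) to Srxn1. Dhrs1 (0.100) and Vps26a (0.120) were nearest to Prdx1, and Lpcat2 (0.205) and Tlr13 (0.216) to Gsr. Nearest to Hmox1 were Cacna1d (0.294) and Cstb (0.323), at a larger distance, and nearest to Sqstm1 were Fam20b (0.0535) and Tmx2 (0.0637). Gclc was nearest to Scyl3 (0.0603) and Anks1 (0.0643). The distance is not scaled to a gene's own spread, so it cannot be ranked across genes of unlike spread. The SD of log2(CPM + 0.5) over the 18 libraries was 0.164 for Gclc, 0.148 for Sqstm1 and 0.987 for Hmox1. The distances are a description over libraries that share groups.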

How the data were processed

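RNA of sorted peritoneal macrophages was measured in 18 libraries of 6 groups. Tables deposited by the authors give estimated counts, not always whole, for genes and for transcripts. STAR, DESeq2 and the mm10 build are named in the submitters' processing notes, without tool versions. How reads were assigned to genes, and whether by strand, is not given in these sources. The authors' deposited comparison tables hold p-values with FDR and a signed fold score (a decrease is written as a negative fold), per the file headers; their columns of scaled counts were not used here.

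Estimated gene counts were rounded to whole numbers and tested with edgeR 4.0.16 (R 4.3.3; limma 3.58.1) by the quasi-likelihood test, with TMM factors, 1 fit over all 6 groups (12 residual degrees of freedom, common dispersion 0.0323) and Benjamini-Hochberg adjustment at 0.05. The filterByExpr function left 16609 of 23511 genes, all 10 targets among them, and removed at most 0.0878% of a library's count. Libraries held 24530070 to 34110392 counts. CPM used TMM library sizes. TPM was computed from estimated transcript counts and GENCODE M21 lengths. SE is the log2 fold change divided by the square root of F, and intervals are 95%. The script was tested on simulated counts.

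The targets and lists were chosen with earlier results of these data known. Named genes were the 10 targets, 4 regulators (Nfe2l2, Keap1, Bach1, Mafg), up to 3 called genes with the smallest p of each other list per comparison, and the 2 nearest profiles of each target among genes of at least 10 CPM.

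The replicate numbers come from the titles. Deviations from group means of libraries with the same number correlated at 0.155 to 0.489 in the 9 pairs of populations of 1 condition, against -0.432 to 0.209 for other numbers, so populations of a condition were taken as paired in the replicate-block alternative alone; the fit whose values are reported holds no block. Between conditions the same number gave -0.294 to 0.160 (18 pairs), so numbers do not pair conditions. Alternatives were DESeq2 1.42.0, RLE factors, no filter on low counts, the compared groups alone, the replicate block, leaving out each library, both no-tumor libraries 1 or both isotype libraries 3. Figures were drawn with matplotlib 3.10.9.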

Additional observations from a re-analysis of the deposited data

Results flagged for a closer look

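The rise with tumor and isotype antibody over no tumor was larger in Tim-4low than in Tim-4high cells for Gsr and Prdx1, by a test of the difference itself. The log2 fold changes of Gsr were 1.90 in Tim-4low and 0.96 in Tim-4high cells, and their difference was 0.95 (adjusted p = 0.0391, edgeR's quasi-likelihood test with Benjamini-Hochberg adjustment). That call was made in 6 of 19 alternatives: it was lost in 11 of the 12 fits that leave out 1 library, with the compared groups alone and without both isotype libraries 3. Those of Prdx1 were 0.84 and 0.21, and their difference was 0.63 (adjusted p = 0.0115), a call made in 18 of 19 alternatives and lost without both isotype libraries 3.

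The difference with anti-Tim-4 over isotype also depended on the population for Prdx1. It was -0.18 in Tim-4low and 0.39 in Tim-4high cells on the log2 scale, and the difference between them was -0.56 (adjusted p = 0.0352). That call was made in 10 of 18 alternatives and lost in 7 of the 12 fits that leave out 1 library and without both isotype libraries 3. Both tests of Prdx1 use the same isotype libraries and are not independent of each other.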

How the results depend on the processing

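With edgeR's test of isotype over no tumor, 8 targets were called in Tim-4low cells (8 to 9 on leaving out 1 library) and 7 in Tim-4high cells (7 to 9). Those 9 in Tim-4high cells, without no-tumor Tim-4high library 1, were 8 higher and 1 lower, Gclc. With anti-Tim-4 over no tumor the counts were 9 (7 to 9) in Tim-4low and 7 (7 to 9) in Tim-4high cells. Within Tim-4high cells, anti-Tim-4 over isotype gave a count of 1, with 0 to 1 on leaving out 1 library, 0 without both isotype libraries 3, and 2 with the compared groups alone or DESeq2; in Tim-4low cells it was 0 throughout these. Between populations the count was 0 with anti-Tim-4 (0 without any 1 library, 1 with DESeq2, 3 with the replicate block), 2 with isotype (0 to 3 on leaving out 1 library, 0 without both isotype libraries 3, 4 with the replicate block) and 2 without tumor (1 to 3, and 5 with the replicate block). The tumor interaction had 2 (1 to 2, 0 without both isotype libraries 3, 1 with the compared groups alone) and the antibody interaction 1 (0 to 1, 0 without both isotype libraries 3, 3 with the replicate block). Between conditions, whose numbers do not pair, the block called Prdx1 for isotype over no tumor in Tim-4high cells (0.21, adjusted p = 0.0327); beyond that and the calls given with the results, it changed no other call of a target. The cause of these shifts was not tested.

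Over all genes, counts of calls moved by more than 1.5 times within Tim-4high cells for anti-Tim-4 over isotype (1324, against 779 with the block, 2990 with the compared groups alone, 2108 with DESeq2 and 210 without both isotype libraries 3, and 10 without isotype Tim-4high library 1, 31 without anti-Tim-4 Tim-4high library 3, 203 without isotype Tim-4high library 3 and 409 without anti-Tim-4 Tim-4high library 2) and in Tim-4low cells (54, against 34 with no filter, 3 with the block, 3 with the compared groups alone, 286 with DESeq2, 5 without both isotype libraries 3 and, where it moved, 2 to 25 on leaving out 1 library). Between populations they moved with anti-Tim-4 (231, against 1182 with the block, 445 with the compared groups alone, 529 with DESeq2 and 25 to 139 on leaving out 1 library), with isotype (4011, against 2625 without Tim-4low library 2) and without tumor (4086, against 2472 with the compared groups alone). The tumor interaction (587) had 1858 with the block, 1028 with DESeq2, 911 without both no-tumor libraries 1, 264 without both isotype libraries 3 and, where it moved, 321 to 889 on leaving out 1 library. The antibody interaction (487) had 2609 with the block, 976 with the compared groups alone, 1297 with DESeq2, 9 without both isotype libraries 3 and, where it moved, 1 to 1418 on leaving out 1 library. No such shift was seen in the 4 comparisons with no-tumor libraries.

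Of 110 results for single targets, 39 were called, and none of these changed sign under an alternative. Of the 56 with an unadjusted p of at least 0.05, 22 changed sign in at least 1 alternative and none was called there. The alternatives were judged for each result only for the other 54, a restriction made after those sign changes were seen, while values of some of the 56 under single alternatives stand with the results. Low counts limit Nqo1 and Slc7a11.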
